A study of Mus musculus with 11 samples.

Results

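The genes described here are Igfbp4, Tdrp, Als2cl, Amigo2, Actn1, Ly6c1, Ramp1 and Cd55, 8 of the 17097 genes measured, followed over sorted T cells of autoimmune lacrimal gland and spleen of NOD mice. They were chosen by their measured difference between naive-type and effector CD4 T cells of the gland on these same arrays. That difference is therefore given for them as a description, with no test. All 20 probe sets listed under the 8 symbols were taken, of 45037 probe sets in all. A probe set is a group of short probes against 1 transcript, and the brightest by mean over the gland arrays stood for its gene.

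The study used 16-week-old male mice of the NOD strain, which develop autoimmune inflammation of the lacrimal (tear) gland. Live cells positive for CD4 and the T cell receptor β chain were sorted from gland suspensions into 3 subsets of 3 arrays each. LG_naive was negative for surface PD-1 and ICOS, LG_eTconv (effector conventional) and LG_eTreg (effector regulatory) were high for both, and the series' design text gives the same low CD73 and low CD200 gate for both effector subsets. Total CD4 T cells (Spl_CD4) and total CD8 T cells (Spl_CD8) came from spleens of those mice, with 1 array a group. All groups share strain, sex and age, and no treatment is named. The LG_naive gate rests on the absence of PD-1 and ICOS, so it can hold resting cells of other kinds. No label ties replicates to separate animals or pools. The p-values thus cover the spread among these samples only, and that spread may be technical.

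Values are log2 signals, with the base of the logarithm inferred from the authors' use of RMA, and arrays give no counts, so their number limits the precision. Over the 11 arrays the median gene lay between 2.26 and 2.39. A signal was called above background when it exceeded the highest nonspecific control of its array, a limit between 0.945 and 1.70, and 55.5% to 65.6% of genes did so. All 13 measured T cell identity genes were above background on every array. The co-receptor gene Cd4 lay at 8.35 to 9.02 on the gland arrays and at 2.47 in Spl_CD8, and Cd8a lay at 9.35 in Spl_CD8. Cd8a was also above background on all gland arrays, at 4.51 to 5.19 in LG_naive, 6.16 to 6.83 in LG_eTconv and 5.13 to 5.23 in LG_eTreg. Cd8b1, the gene of the other CD8 chain, lay at 6.43 in Spl_CD8 and at 0.62 to 1.83 on the gland arrays. Foxp3, the defining transcription factor of regulatory T cells, lay at 8.13 to 8.21 in LG_eTreg and at 2.86 to 4.95 on the other gland arrays. A ribosomal RNA control was at 6.15 on LG_naive 1 and 6.76 on LG_eTreg 3 against 3.57 to 5.34 elsewhere, and on LG_eTconv 1 the 3′ actin control exceeded the 5′ one by 3.35, against 1.53 to 2.86 elsewhere. Every call of a named gene that ended without these 3 arrays together is given as such below.

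Naive T cells recirculate between blood and lymphoid organs, and transcription factors such as KLF2, LEF1 and members of the FOXO family keep that programme active until the cell meets its antigen. Activation through the T cell receptor then lowers many of these genes while effector genes are raised. The genes described here are known from different parts of cell biology. Igfbp4 encodes a secreted protein that binds insulin-like growth factors. Ramp1 encodes an accessory subunit that turns the receptor protein of Calcrl into the receptor for calcitonin gene-related peptide, a neuropeptide. Cd55 encodes decay-accelerating factor, a membrane-anchored inhibitor of complement that is also the ligand of the adhesion receptor encoded by Adgre5. Amigo2 encodes a membrane protein with leucine-rich repeats that takes part in cell adhesion, Ly6c1 a membrane-anchored protein of the Ly6 family, and Actn1 an α-actinin that cross-links actin filaments and couples them to integrins. Als2cl encodes a protein of endosome traffic that binds the GTPase Rab5, and Tdrp a nuclear protein first described in testis.

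By RefSeq on GRCm38.p6, the genes lie on 6 chromosomes. Igfbp4 is at chr11:99040005-99052655, Tdrp at chr8:13952008-13975478, Als2cl at chr9:110880120-110900530 and Actn1 at chr12:80167542-80260420. Amigo2 (chr15:97244074-97247287) and Ly6c1 (chr15:75044018-75048920) share a chromosome, as do Ramp1 (chr1:91179822-91225196) and Cd55 (chr1:130429798-130465009). Promoters of 300 bases, from 250 before to the 50 after an annotated start, were listed for 7 of the 8 genes (9 promoters, none for Tdrp) out of 32851 promoters in RefSeq on GRCm38.p6. Each was searched on both strands for short motifs of factor families that act in naive or activated T cells, and 4 promoters are shown: the 2 with a match, the one richest in G and C (Amigo2), and 1 of Ly6c1. All are written 5′ to 3′ on the gene's strand, and capitals mark a match to the KLF motif.
Igfbp4, chr11:99040994-99041293, plus strand: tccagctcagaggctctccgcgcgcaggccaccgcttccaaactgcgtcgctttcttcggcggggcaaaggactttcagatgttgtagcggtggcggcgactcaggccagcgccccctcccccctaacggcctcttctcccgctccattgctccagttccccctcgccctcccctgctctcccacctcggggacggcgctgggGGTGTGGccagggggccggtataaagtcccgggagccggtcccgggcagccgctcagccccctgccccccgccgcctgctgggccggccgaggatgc
Ramp1, chr1:91179572-91179871, plus strand: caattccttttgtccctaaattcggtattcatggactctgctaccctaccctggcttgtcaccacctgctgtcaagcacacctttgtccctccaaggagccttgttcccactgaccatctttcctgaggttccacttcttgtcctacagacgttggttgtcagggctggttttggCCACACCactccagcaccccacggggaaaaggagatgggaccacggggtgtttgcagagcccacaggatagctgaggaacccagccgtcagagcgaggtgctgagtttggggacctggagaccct
Amigo2, chr15:97247238-97247537, minus strand: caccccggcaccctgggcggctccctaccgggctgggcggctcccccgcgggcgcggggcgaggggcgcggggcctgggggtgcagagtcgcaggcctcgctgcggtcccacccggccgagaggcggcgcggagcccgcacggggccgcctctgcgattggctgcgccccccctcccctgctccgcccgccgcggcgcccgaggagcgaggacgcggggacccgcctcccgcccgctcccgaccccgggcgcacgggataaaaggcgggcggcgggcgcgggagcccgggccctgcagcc
Ly6c1 (1 of its 2 listed starts), chr15:75048614-75048913, minus strand: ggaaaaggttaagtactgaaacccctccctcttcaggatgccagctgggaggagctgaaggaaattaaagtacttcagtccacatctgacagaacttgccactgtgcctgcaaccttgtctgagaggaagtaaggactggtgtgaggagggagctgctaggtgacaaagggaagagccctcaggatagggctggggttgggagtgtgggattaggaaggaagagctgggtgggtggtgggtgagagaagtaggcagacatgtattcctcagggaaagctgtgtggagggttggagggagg

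The KLF letters CCACACC were found in the promoters of Ramp1, at position −75 from the start on the gene's strand, and Igfbp4, at position −47 and on the opposite strand, where the gene's strand reads GGTGTGG. Of all promoters 7.58% held this motif. The 9 promoters held no match to the FOXO motif GTAAACA, the TCF/LEF motif CTTTGA, the ETS motif CCGGAAG or the AP-1 motif TGANTCA, which were present in 3.65%, 16.0%, 8.86% and 7.81% of all promoters. The AP-1 letters read the same on both strands apart from the middle base, and no match overlapped another. The 2 genes that share the KLF letters lay on opposite sides in LG_naive: Igfbp4 above and Ramp1 below the effector subsets. Base composition differed widely: the Amigo2 promoter was 83.3% G or C, above 99.7% of all promoters, Igfbp4 was at 71.3% and Ramp1 at 55.7%, while the Ly6c1 promoter shown was at 53.7% and that of its other start, the lowest of the 9, at 49.0%, against a median of 52.7% over all promoters. These matches describe the letters in the window and say nothing of binding.

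In LG_naive, 7 of the 8 genes were higher than in both effector subsets without any overlap of arrays, and Ramp1 was lower without overlap. Of all genes, 17.2% lay lower and 13.8% higher in LG_eTconv than in LG_naive without overlap, and 13.9% and 13.3% did so in LG_eTreg. The same comparisons gave 7.02% of all genes called lower and 6.45% called higher in LG_eTconv, and 5.47% lower and 6.20% higher in LG_eTreg, at a limma adjusted p under 0.05. Since the genes were chosen on these differences, nothing is read from the counts. Over single probe sets, 17 of the 20 lay lower in each effector subset without overlap, and the 3 that did not are those of Ramp1. In RNA from sorted bulk samples, fewer cells that express a gene and less RNA per cell cannot be told apart.

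**Figure D1:**
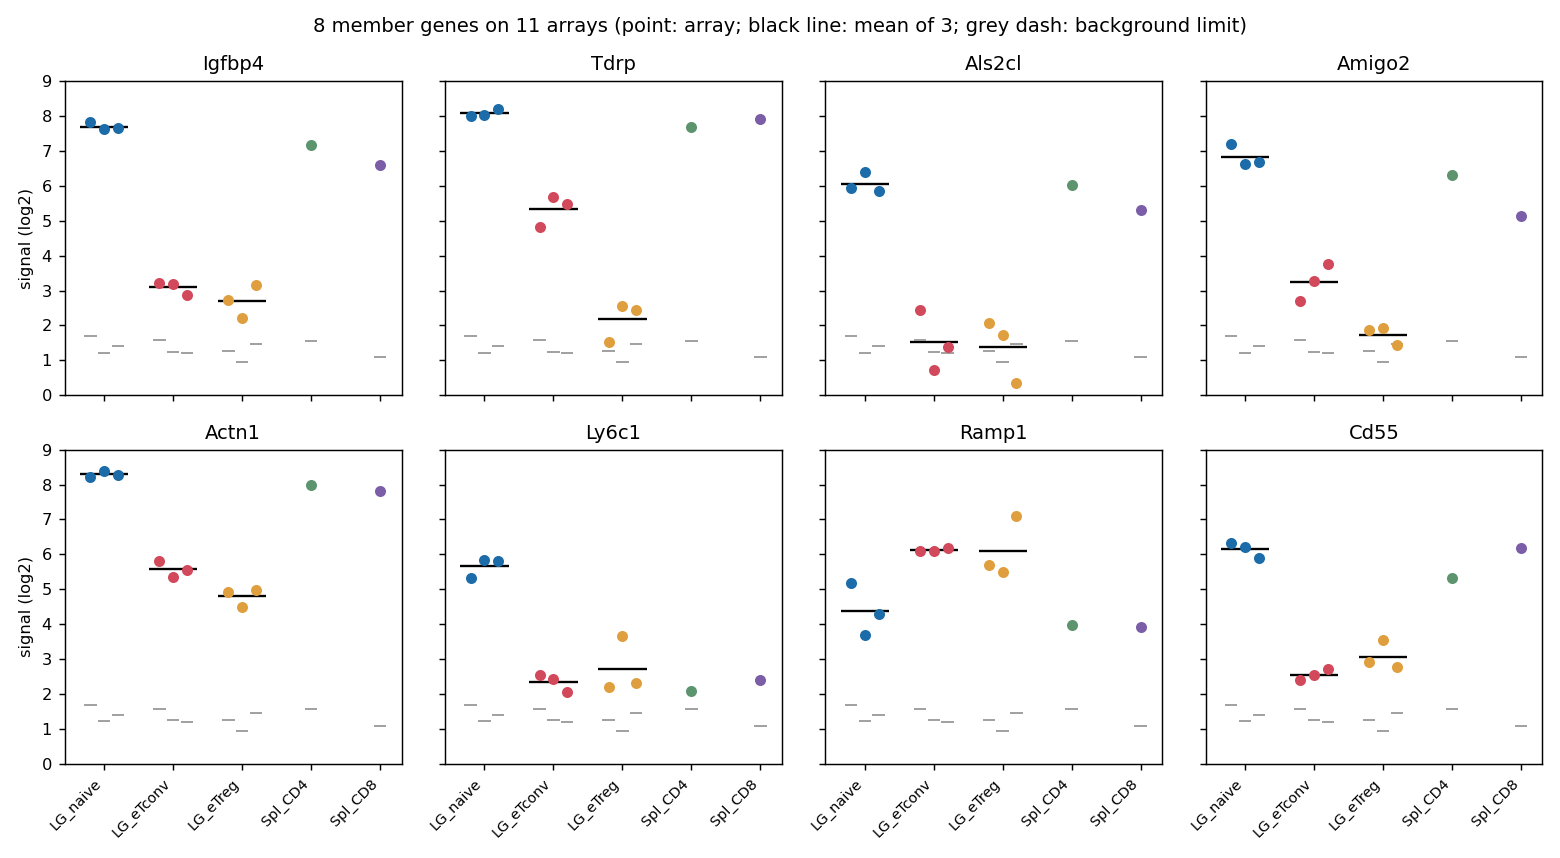
Log2 signal of the 8 genes on the 11 arrays, 1 panel a gene, with a point for each array, a black line for the mean of 3 arrays and a grey dash for the background limit of each array. The LG_naive points lie above all 6 effector points in every panel but that of Ramp1, and the spleen points lie with LG_naive except for Ly6c1.

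Igfbp4, the secreted binding protein, had the widest gap between LG_naive and the nearest effector array, 4.40 on the log2 scale. Its standing probe set (1423757_PM_x_at) read 7.82, 7.62 and 7.65 in LG_naive, 3.22, 3.19 and 2.87 in LG_eTconv, 2.74, 2.21 and 3.16 in LG_eTreg, 7.17 in Spl_CD4 and 6.59 in Spl_CD8. The LG_naive arrays were high and tightly grouped, the spleen arrays were near them, and the effector subsets overlapped each other well below. The suffix x_at marks probes that may also hybridise to other transcripts, and the other probe sets reached lower. Probe set 1423756_PM_s_at read 8.13, 8.14 and 8.25 in LG_naive, 1.75, 2.56 and 2.64 in LG_eTconv, and 0.61, 0.64 and 0.91 in LG_eTreg. Here all 3 LG_eTreg arrays were below background and all 3 LG_eTconv arrays above it. Probe set 1437405_PM_a_at read 8.07, 8.01 and 8.16 in LG_naive, 3.57, 2.34 and 1.83 in LG_eTconv, and 0.84, 0.65 and 0.59 in LG_eTreg, with LG_eTreg again below background.

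Against the background limit, Igfbp4 signal was at least 124-fold lower in LG_eTreg than in LG_naive by 1423756_PM_s_at, at least 116-fold by 1437405_PM_a_at and at least 21.3-fold by 1437406_PM_x_at. These bounds set the mean of the brighter group against the mean background limit of the dimmer group's arrays. They are given only where all arrays of the dimmer group lay at or below their limits. Between the effector subsets the probe sets disagreed. The standing probe set gave a log2 difference of −0.39 (SE 0.23, limma adjusted p = 0.483) with overlapping groups, lower in LG_eTreg in the mean. With every probe set tested, 1423756_PM_s_at was lower in LG_eTreg by at least 2.14-fold (limma adjusted p = 0.00718) and 1437405_PM_a_at by at least 2.56-fold (limma adjusted p = 0.0342), both without overlap. Also lower without overlap, but not called, were 1437406_PM_x_at (log2 difference −0.88 as fitted, limma adjusted p = 0.106) and 1421992_PM_a_at (log2 difference −0.39, limma adjusted p = 0.335). For 1421991_PM_a_at the log2 difference was 0.034 (limma adjusted p = 0.937), with overlap. The dim probe set 1421991_PM_a_at lay at 2.10 to 2.22 in LG_naive and at 1.34 to 1.50 on the effector arrays, close to background. Igfbp4 as a gene was called lower in LG_eTreg in 2 of 20 settings: with the mean of its probe sets (log2 difference −0.85, limma adjusted p = 0.00246) and, in a setting chosen after seeing the data, with x_at probe sets left out (log2 difference −1.88, limma adjusted p = 0.0211).

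**Figure D2:**
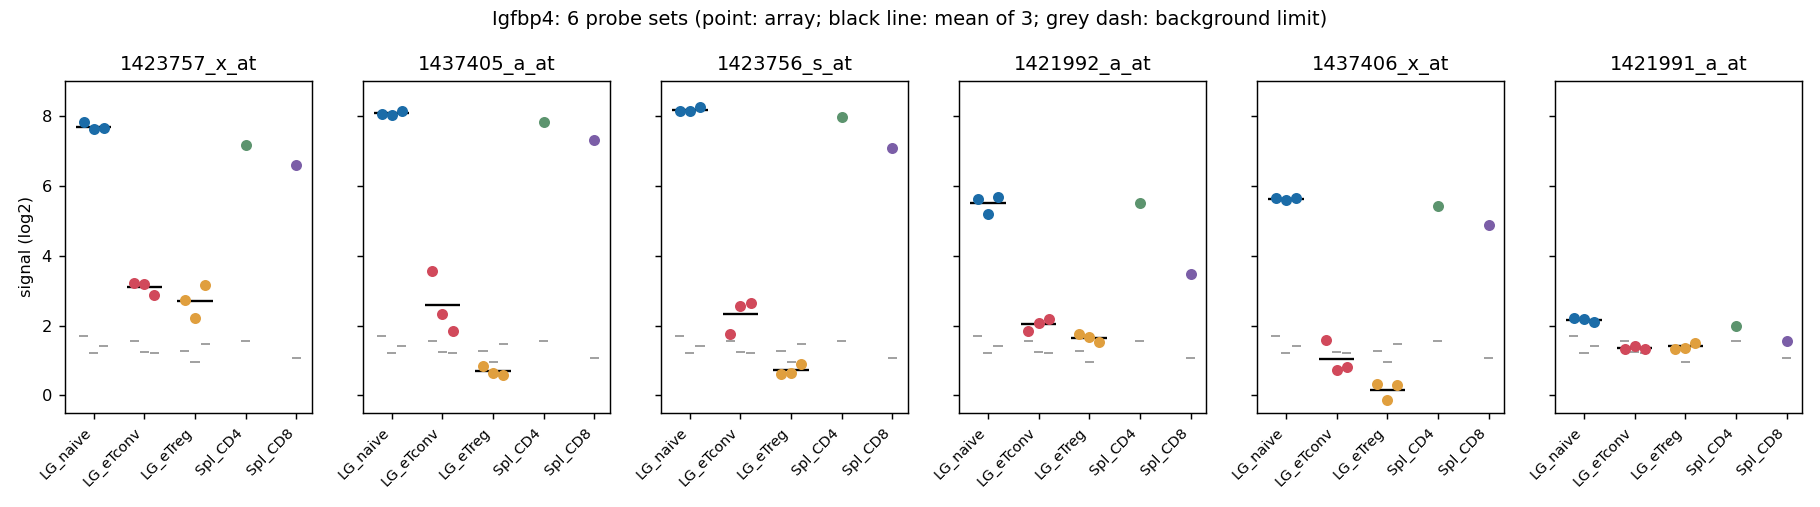
Log2 signal of the 6 Igfbp4 probe sets on the 11 arrays, with a point for each array, a black line for the mean of 3 and a grey dash for each array's background limit. In 1437405, 1423756 and 1437406 the 3 LG_eTreg points lie below their background limits, while in the standing probe set 1423757 they lie above.

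Among the other genes of the insulin-like growth factor axis, 20 of 24 listed were measured and 11 were above background in at least some arrays. In LG_eTconv against LG_naive 1 rose and 0 fell, in LG_eTreg against LG_naive 1 rose and 1 fell, and between the effector subsets 0 rose and 2 fell in LG_eTreg. Igf1r, the receptor for insulin-like growth factor 1, was the gene that rose: it read 5.49, 5.23 and 5.91 in LG_naive, 7.74, 8.02 and 8.09 in LG_eTconv, and 7.02, 6.74 and 7.06 in LG_eTreg. The 3 groups did not overlap, and LG_eTconv was highest. The rise over LG_naive was 2.40 (SE 0.19, limma adjusted p = 6.87e-05) in LG_eTconv and 1.40 (SE 0.19, limma adjusted p = 0.00169) in LG_eTreg. Between the effector subsets Igf1r differed by −1.0 (limma adjusted p = 0.0171), a call that ended, at up to 0.0829, without LG_eTconv 2, LG_eTconv 3 or LG_eTreg 2, and without LG_naive 1, LG_eTconv 1 and LG_eTreg 3 together. Stc2, a secreted stanniocalcin that inhibits the protease of the Igfbp4 protein, fell in LG_eTreg by 1.81 against LG_naive (limma adjusted p = 0.00265) and by 2.30 against LG_eTconv (limma adjusted p = 0.00131), with 2 of 3 LG_eTreg arrays above background. The median difference over the list was −0.0044, −0.081 and −0.072 in the 3 comparisons, against −0.028, −0.019 and 0.014 over all genes.

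Cd55, the complement inhibitor, read 6.33, 6.20 and 5.89 in LG_naive, 2.40, 2.53 and 2.72 in LG_eTconv, 2.91, 3.54 and 2.78 in LG_eTreg, 5.32 in Spl_CD4 and 6.18 in Spl_CD8. LG_naive and Spl_CD8 were alike, and all effector arrays were low but above background. LG_eTreg lay above LG_eTconv without overlap, by 0.52 (SE 0.21), and this did not pass (limma adjusted p = 0.268). The probe set 1443906_PM_at showed the same order within the gland, at 4.66, 3.67 and 4.39 in LG_naive, 2.22, 2.71 and 1.58 in LG_eTconv and 2.87, 3.09 and 3.07 in LG_eTreg, but was highest in spleen, at 5.52 and 5.51. The probe set 1460242_PM_at read 5.40 to 5.52 in LG_naive, 0.68 to 1.93 in LG_eTconv and 1.60 to 2.61 in LG_eTreg, where the effector subsets overlapped.

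Of 25 listed genes of complement and its regulators 20 were measured. In LG_eTconv against LG_naive 0 rose and 7 fell, in LG_eTreg 0 rose and 5 fell, and between the effector subsets 1 was higher in LG_eTreg and 0 lower. The list's median difference was −0.76 and −0.49 against LG_naive, or −0.37 and −0.35 with values below background set to the limit, and 0.085 between the effector subsets. Cd55b, a close copy of Cd55, was below background in all effector arrays, at least 2.72-fold lower in LG_eTconv (limma adjusted p = 7.55e-05) and at least 2.96-fold lower in LG_eTreg (limma adjusted p = 8.79e-05). Cross-hybridisation between probes of these copies was not tested. Clu, which encodes clusterin, an extracellular chaperone that inhibits the terminal complement complex, fell by 3.34 in LG_eTconv (limma adjusted p = 0.0122). Itgax, an integrin subunit of a complement receptor and a marker of dendritic cells, fell by 3.13 as fitted in LG_eTconv (limma adjusted p = 0.00386), where 1 of 3 arrays was above background, and by 2.30 in LG_eTreg (limma adjusted p = 0.0213), the latter lost (up to 0.0701) with the replicate block and without LG_naive 1, 2 or 3, LG_eTreg 1 or LG_eTreg 2.

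Adgre5 encodes CD97, the receptor of which Cd55 is the ligand. It read 7.24, 7.31 and 7.27 in LG_naive, 6.27, 6.37 and 6.02 in LG_eTconv, 6.79, 6.74 and 6.81 in LG_eTreg, 7.59 in Spl_CD4 and 7.25 in Spl_CD8. The order of the gland groups was that of Cd55, with no overlap. Adgre5 fell by 1.05 in LG_eTconv (limma adjusted p = 0.000316) and by 0.49 in LG_eTreg (limma adjusted p = 0.0211), and the effector subsets differed by 0.56 (limma adjusted p = 0.0197). The LG_eTreg call ended, with an adjusted p of up to 0.107, without LG_naive 2, LG_naive 3, LG_eTreg 1 or LG_eTreg 2. The call between effector subsets ended, with up to 0.14, with quantile normalization, with only the 2 groups fitted, and without LG_eTconv 3 or any LG_eTreg array. Both ended without LG_naive 1, LG_eTconv 1 and LG_eTreg 3 together.

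Ramp1 went against the label of a naive-cell gene. Its standing probe set read 5.19, 3.69 and 4.30 in LG_naive, 6.10, 6.11 and 6.17 in LG_eTconv, 5.69, 5.50 and 7.11 in LG_eTreg, 3.98 in Spl_CD4 and 3.93 in Spl_CD8. The effector arrays were the high ones, the gap to the nearest LG_naive array was 0.31, and the SD within LG_naive was 0.76. The spleen arrays lay within the LG_naive range. The means differed from LG_naive by 1.73 in LG_eTconv and 1.71 in LG_eTreg, and from each other by −0.026 (SE 0.47, limma adjusted p = 0.989). Probe set 1431413_PM_at showed the same direction at a dimmer level, with 1.91, 0.94 and 1.43 in LG_naive, 3.0, 3.45 and 2.26 in LG_eTconv and 2.21, 2.57 and 1.92 in LG_eTreg. Probe set 1447474_PM_at was below background on all 11 arrays, at most 1.02, and measured nothing.

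Calcrl, the partner that forms the calcitonin gene-related peptide receptor with the Ramp1 product, ran the other way. It read 7.15, 7.48 and 7.32 in LG_naive, 4.90, 4.97 and 5.22 in LG_eTconv, 6.40, 6.64 and 6.26 in LG_eTreg, 7.11 in Spl_CD4 and 7.52 in Spl_CD8. The 3 gland groups did not overlap, and LG_eTconv was lowest. Calcrl fell by 2.28 in LG_eTconv (SE 0.14, limma adjusted p = 1.99e-05) and by 0.88 in LG_eTreg (limma adjusted p = 0.00478), and was higher in LG_eTreg than in LG_eTconv by 1.40 (limma adjusted p = 0.000698). Of the other partners of Calcrl, Ramp2 lay at 8.69 to 9.12 on the gland arrays. Ramp3 lay at 6.01 to 6.24 on the gland arrays and at 2.61 and 2.63 in spleen, and in the gland neither Ramp2 nor Ramp3 was called in any of the comparisons.

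Of 21 listed genes of the calcitonin gene-related peptide receptor axis, which also covers the cyclic AMP machinery behind the receptor, 19 were measured. In LG_eTconv 0 rose and 3 fell against LG_naive, in LG_eTreg 1 rose and 2 fell, and between the effector subsets Calcrl was the 1 call. Pde4b, a phosphodiesterase that degrades cyclic AMP, fell by 0.76 in LG_eTconv (limma adjusted p = 0.000589) and by 0.79 in LG_eTreg (limma adjusted p = 0.00058). Pde4d, of the same family, fell by 0.53 in LG_eTconv (limma adjusted p = 0.0385), a call that held in 7 of 20 settings with an adjusted p of up to 0.198 and ended without each array of those 2 groups in turn, without LG_eTreg 3, and without LG_naive 1, LG_eTconv 1 and LG_eTreg 3 together. Prkar1a, a regulatory subunit of protein kinase A, rose by 0.50 in LG_eTreg (limma adjusted p = 0.0388), which held in 11 of 20 settings and ended, at up to 0.185, without LG_naive 1, 2 or 3, LG_eTconv 2, LG_eTreg 2 or LG_eTreg 3, and without LG_naive 1, LG_eTconv 1 and LG_eTreg 3 together. The list's median difference was 0.095, 0.0088 and −0.029.

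**Figure D3:**
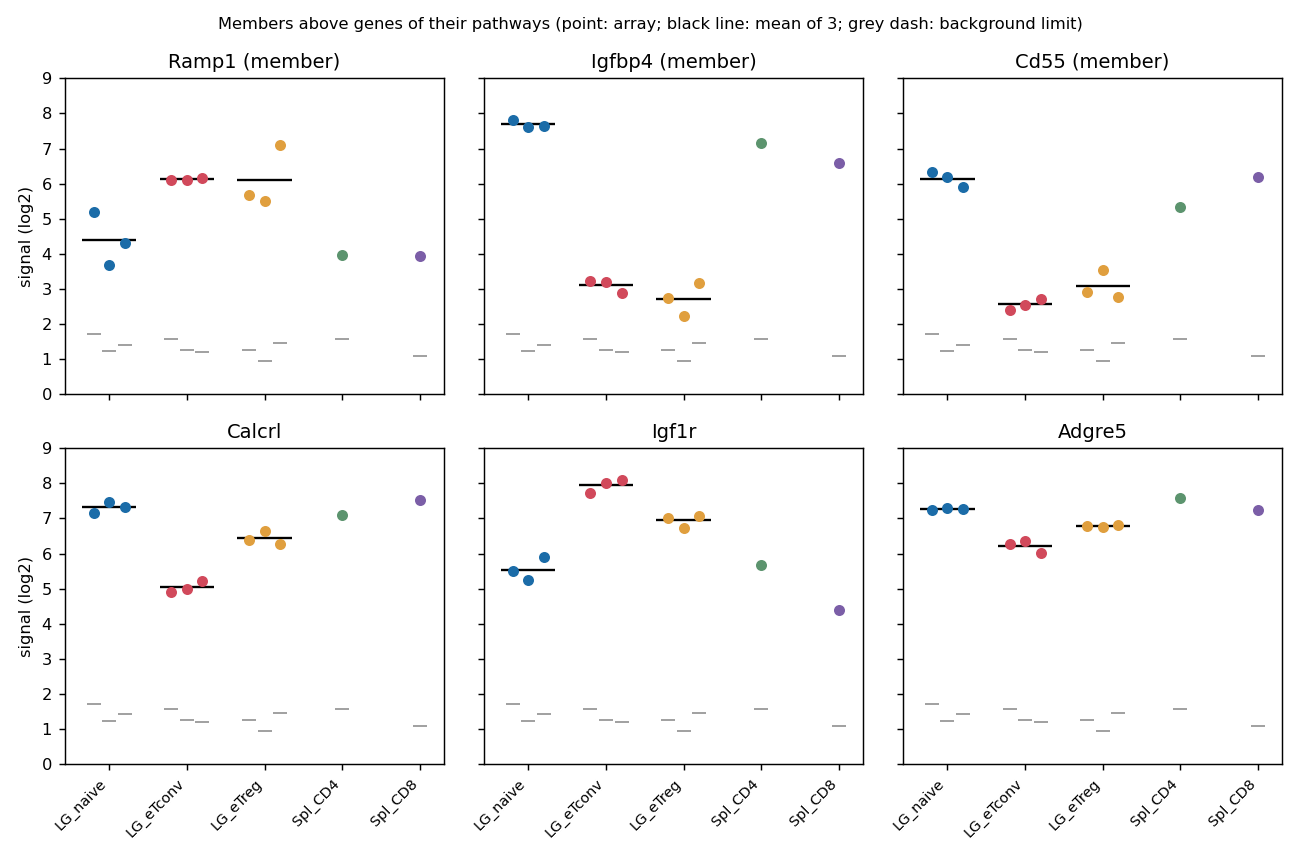
Log2 signal on the 11 arrays for Ramp1, Igfbp4 and Cd55 in the upper row and, in the lower row, Calcrl, Igf1r and Adgre5, genes of the same pathways, with points for arrays, black lines for means of 3 and grey dashes for background limits. Calcrl is highest where Ramp1 is low, Igf1r is highest in LG_eTconv, and the gland groups of Adgre5 stand in the order of those of Cd55.

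Amigo2, the leucine-rich repeat adhesion protein, separated all 3 gland subsets. It read 7.19, 6.62 and 6.67 in LG_naive, 2.69, 3.28 and 3.76 in LG_eTconv, 1.86, 1.92 and 1.44 in LG_eTreg, 6.32 in Spl_CD4 and 5.15 in Spl_CD8. LG_eTreg was lowest, with 2 of its 3 arrays above background, and Spl_CD8 lay 1.68 below the LG_naive mean. The difference between LG_eTreg and LG_eTconv was −1.50 (SE 0.28, limma adjusted p = 0.0166). It was called in 16 of 20 settings, including that without LG_naive 1, LG_eTconv 1 and LG_eTreg 3, and was lost without LG_eTconv 2 (0.0633), without LG_eTreg 3 (0.0571), with values below background set to the limit (0.0522) and with the replicate number as a block (0.0539). Of 22 listed relatives 21 were measured, 11 of them above background somewhere: in LG_eTconv 2 rose and 0 fell, in LG_eTreg 1 rose and 0 fell, and between the effector subsets 1 was higher and 2 lower in LG_eTreg. The list's median difference was 0.026, −0.083 and 0.0049.

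Lrig1, which encodes a leucine-rich repeat protein that restrains growth factor receptors, read 4.70 to 5.24 in LG_naive, 7.45 to 7.77 in LG_eTconv and 4.35 to 4.88 in LG_eTreg. It rose by 2.64 in LG_eTconv (limma adjusted p = 4.11e-05) and was lower in LG_eTreg than in LG_eTconv by 3.02 on the log2 scale (log2 difference −3.02, limma adjusted p = 4.47e-05). Lrrn3, a neuronal leucine-rich repeat gene, was below background in LG_naive and at 3.36 to 4.18 in LG_eTreg, at least 5.42-fold higher (limma adjusted p = 8.47e-05). It also exceeded LG_eTconv, by 2.25 (limma adjusted p = 0.000691). The pattern of Amigo2, high in LG_naive and low in both effector subsets, was not that of Lrig1 or Lrrn3.

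Actn1, the α-actinin, stayed clearly above background everywhere by its standing probe set. It read 8.23, 8.40 and 8.28 in LG_naive, 5.82, 5.35 and 5.56 in LG_eTconv, 4.92, 4.50 and 4.99 in LG_eTreg, 8.00 in Spl_CD4 and 7.81 in Spl_CD8. The groups did not overlap, in the order LG_naive, Spl_CD4, Spl_CD8, LG_eTconv and LG_eTreg. LG_eTreg differed from LG_eTconv by −0.77 (SE 0.17, limma adjusted p = 0.0321). This call held in 9 of 20 settings: it was lost without LG_naive 2 (0.0524), LG_naive 3 (0.0598), LG_eTconv 1 (0.101), LG_eTconv 3 (0.0916), LG_eTreg 1 (0.0576) or LG_eTreg 2 (0.0843), and at 0.119 without LG_naive 1, LG_eTconv 1 and LG_eTreg 3 together. It was also lost with the mean of the probe sets (log2 difference −0.44, adjusted p = 0.203), with only the 2 groups fitted (0.0872), with values below background set to the limit (0.0634) and with the replicate number as a block (0.0503). The dimmer probe sets 1427385_PM_s_at and 1452415_PM_at gave −0.28 and −0.27 with overlapping effector subsets.

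Of 30 listed genes of actinins and focal adhesion 27 were measured. In LG_eTconv 2 rose and 5 fell, in LG_eTreg 2 rose and 3 fell, and between the effector subsets 3 were higher and 1 lower in LG_eTreg, with median differences of −0.095, 0.055 and 0.13. Pdlim1, which encodes a LIM protein that binds α-actinin, read 6.54, 6.61 and 6.45 in LG_naive, 2.30, 1.87 and 3.29 in LG_eTconv, 2.96, 3.47 and 2.72 in LG_eTreg and 6.38 and 6.78 in spleen. Like Actn1, it was high in LG_naive and spleen, but its effector subsets overlapped. It fell by 4.04 in LG_eTconv (limma adjusted p = 1e-04) and by 3.48 in LG_eTreg (limma adjusted p = 0.000283). The integrin gene Itgb3 fell by 3.24 and 2.58 (limma adjusted p = 0.000137 and 0.000607) and Itga6 fell by 1.53 and 0.69 (limma adjusted p = 9.39e-05 and 0.00859). The integrin gene Itgb1 instead rose by 2.25 in LG_eTconv (limma adjusted p = 0.000279) and by 1.21 in LG_eTreg (limma adjusted p = 0.00965, 0.0635 without LG_naive 1, LG_eTconv 1 and LG_eTreg 3).

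Ly6c1 differed from the other genes in spleen. It read 5.33, 5.83 and 5.82 in LG_naive, 2.55, 2.42 and 2.06 in LG_eTconv, 2.21, 3.66 and 2.32 in LG_eTreg, 2.09 in Spl_CD4 and 2.40 in Spl_CD8. It was high in LG_naive alone, with LG_eTreg 2 the next highest array, and the spleen arrays lay with the effector subsets. LG_naive exceeded Spl_CD4 by 3.57 and Spl_CD8 by 3.25 in the mean, and the effector subsets differed by 0.38 (SE 0.37, limma adjusted p = 0.728). Ly6c1 was the 1 gene of the 8 whose LG_naive mean lay at least 1 above Spl_CD4 with all 3 LG_naive arrays above it. Of all genes 4.67% met this rule, and 4.57% met it in the other direction. Against Spl_CD8, 3 of the 8 genes met it (Igfbp4, Amigo2 and Ly6c1), as did 6.11% of all genes, with 5.43% in the other direction. These counts are by standing probe sets, by which none of the 8 met the rule in the other direction against either spleen array. By 1443906_PM_at, Cd55 did meet it there, with a difference of −1.28 between LG_naive and each spleen array. By 1427385_PM_s_at, Actn1 in LG_naive was 1.61 above Spl_CD8, with all 3 LG_naive arrays above it. Ly6c1 has 1 probe set here, and its close copy Ly6c2 (chr15:75108161-75112066) has no probe set under its symbol in the annotation used here, so signal from the copy cannot be told apart.

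The Ly6 protein is also carried by plasmacytoid dendritic cells and monocytes, which the sort for CD4 and the T cell receptor β chain should remove. Markers of these cells moved with LG_naive. Over 12 measured markers of plasmacytoid dendritic cells the mean log2 signal was 5.52 to 5.75 in LG_naive, 3.12 to 3.35 in LG_eTconv, 3.06 to 3.16 in LG_eTreg, 3.78 in Spl_CD4 and 4.13 in Spl_CD8. Of the 12, 9 fell in each effector subset against LG_naive, and 1, Pacsin1, rose in LG_eTconv, with 6.0 to 6.29 in LG_naive and 7.29 to 7.71 in LG_eTconv (limma adjusted p = 0.000995). Klra17, a lectin-like receptor, read 8.16, 8.08 and 7.99 in LG_naive, 2.70 to 3.68 in LG_eTconv, 3.57 to 4.64 in LG_eTreg, 5.41 in Spl_CD4 and 3.99 in Spl_CD8. Lair1, an inhibitory receptor gene, read 6.94, 7.29 and 7.10 in LG_naive, 1.77 to 2.29 in LG_eTconv, 1.18 to 2.52 in LG_eTreg, 5.54 in Spl_CD4 and 4.87 in Spl_CD8. Tlr9 lay at 1.18 to 1.92 on all arrays, near background. Ccr9, which naive T cells also express, is in this list and in that of naive T cell genes.

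Over 14 measured markers of monocytes and macrophages the mean was 3.56 to 3.99 in LG_naive, 2.03 to 2.14 in LG_eTconv, 2.55 to 2.57 in LG_eTreg, 3.31 in Spl_CD4 and 3.23 in Spl_CD8, and 10 or 11 of the 14 were above background on the LG_naive arrays. Against LG_naive 8 fell and 0 rose in LG_eTconv, and 7 fell and 1 rose in LG_eTreg. Tyrobp, a signalling adaptor gene of myeloid and natural killer cells, read 7.81 to 8.33 in LG_naive, 4.15 to 4.72 in LG_eTconv and 4.22 to 4.36 in LG_eTreg. Cd14, a monocyte receptor gene, read 4.56 to 4.94 in LG_naive, 1.34 to 2.04 in LG_eTconv and 3.10 to 3.88 in LG_eTreg. Lyz2, Ly86 and Cd68, of the same list, lay at 6.83 to 7.85, 7.01 to 7.49 and 5.57 to 6.28 in LG_naive. Csf1r and Itgam, defining genes of monocytes, were at 0.48 to 0.87 and 0.02 to 0.26 in LG_naive, below background. Itgam was below background on all 11 arrays, so its probe set does not separate the groups. Over 11 measured dendritic cell markers the mean was 4.30 to 4.75 in LG_naive, 3.15 to 3.37 in LG_eTconv, 3.20 to 3.62 in LG_eTreg, 4.77 in Spl_CD4 and 4.34 in Spl_CD8, and 7 fell in each effector subset while 0 rose in LG_eTconv and 1 in LG_eTreg. The part of these cells in the Ly6c1 signal, and in that of the other described genes, was not tested. Over 18 measured markers of gland epithelium the mean was 3.64 to 4.29 in LG_naive, 2.81 to 3.42 on the effector arrays and 2.02 and 1.87 in spleen, and 5 of them fell in LG_eTconv and 4 in LG_eTreg while 1 rose in each.

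**Figure D4:**
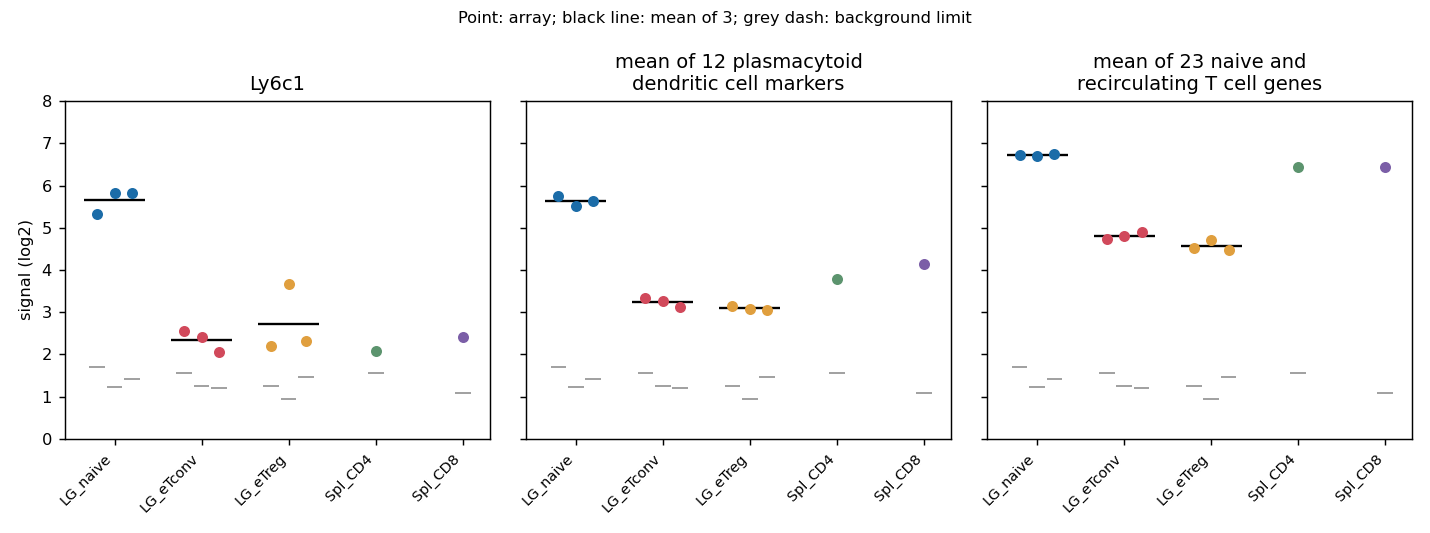
Log2 signal of Ly6c1 on the 11 arrays, beside the mean log2 signal of 12 plasmacytoid dendritic cell markers and of 23 naive and recirculating T cell genes, with points for arrays, black lines for means of 3 and grey dashes for background limits. Ly6c1 and the dendritic cell markers are highest in LG_naive (5.33 to 5.83 and 5.52 to 5.75), while the naive T cell genes are about as high in spleen (6.44 on both arrays) as in LG_naive (6.71 to 6.76).

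Of 25 listed genes of the Ly6 and urokinase receptor domain family 20 were measured and 11 were above background somewhere. In LG_eTconv 1 rose and 5 fell, in LG_eTreg 1 rose and 4 fell, and between the effector subsets 1 was higher and 1 lower in LG_eTreg, with median differences of −0.077, −0.050 and −0.020. Plaur, the urokinase receptor gene, was like Ly6c1 in that it was high in LG_naive alone: it read 6.96, 6.25 and 6.66 in LG_naive, 3.57, 3.80 and 3.52 in LG_eTconv, 1.75, 2.32 and 2.26 in LG_eTreg, 2.79 in Spl_CD4 and 3.96 in Spl_CD8. It fell by 2.99 in LG_eTconv (limma adjusted p = 3.92e-05) and by 4.51 in LG_eTreg (limma adjusted p = 6.14e-06). Lypd6b was below background in all effector arrays, at least 3.23-fold lower in LG_eTconv (limma adjusted p = 5.62e-05) and at least 3.51-fold lower in LG_eTreg (limma adjusted p = 6.74e-05). Lypd1 rose, by 1.55 in LG_eTconv (limma adjusted p = 0.00641) and by 2.65 in LG_eTreg (limma adjusted p = 0.000404). Ly6e was higher in LG_eTreg than in LG_eTconv by 1.21 (limma adjusted p = 0.00289, 0.0527 without LG_naive 1, LG_eTconv 1 and LG_eTreg 3).

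Als2cl, the endosome traffic gene, read 5.95, 6.39 and 5.84 in LG_naive, 2.46, 0.72 and 1.37 in LG_eTconv, 2.07, 1.74 and 0.36 in LG_eTreg, 6.03 in Spl_CD4 and 5.30 in Spl_CD8. It was near background in both effector subsets, with 2 of 3 arrays above the limit in each. Spl_CD4 lay within the LG_naive range. The effector subsets overlapped and differed by −0.12 (SE 0.52, limma adjusted p = 0.956). The second probe set, 1427533_PM_at, was below background on all effector arrays and at least 2.11-fold lower in LG_eTconv and at least 2.29-fold lower in LG_eTreg than in LG_naive.

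Tdrp, measured by 1 probe set, differed most between the effector subsets. It read 7.99, 8.03 and 8.20 in LG_naive, 4.82, 5.67 and 5.48 in LG_eTconv, 1.52, 2.56 and 2.44 in LG_eTreg, 7.67 in Spl_CD4 and 7.92 in Spl_CD8. LG_eTconv was intermediate, LG_eTreg was low but above background on all 3 arrays, and no neighbouring groups overlapped. The difference between LG_eTreg and LG_eTconv was −3.15 (SE 0.31, limma adjusted p = 5e-04). It was called in 20 of 20 settings, between −3.54 and −2.82, with an adjusted p of at most 0.00873.

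Between the effector subsets, 3 of the 8 genes fell in LG_eTreg (Tdrp, Amigo2 and Actn1) and 0 rose. Of all genes 2.76% were called lower and 2.94% higher. The median difference of the 8 was −0.26 against 0.014 over all genes. The choice of genes used differences that involve these same effector arrays, with earlier results known. Nothing is therefore read from the counts or the median. Of the 3 falls, those of Tdrp and Amigo2 held without LG_naive 1, LG_eTconv 1 and LG_eTreg 3 together, and that of Actn1 did not. With the replicate number as a block, that of Tdrp alone held. A further member, Cd55, lay on the other side of LG_eTconv without overlap but did not pass. For Igfbp4, Als2cl, Ly6c1 and Ramp1 the effector subsets overlapped by their standing probe sets, with SEs from 0.23 to 0.52.

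**Figure D5:**
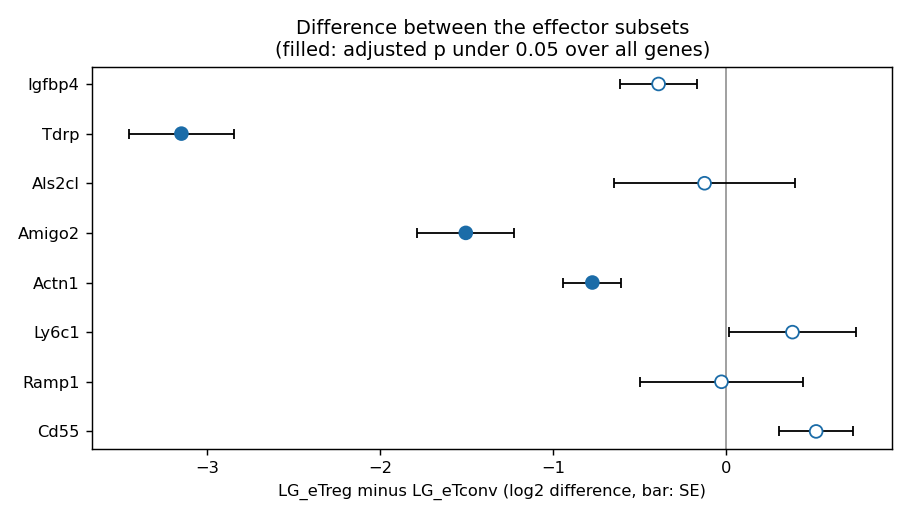
Log2 difference between LG_eTreg and LG_eTconv for the 8 genes, with the point at the difference of means of 3 arrays and the bar showing 1 SE, and filled points marking a limma adjusted p under 0.05 over all genes. Tdrp (−3.15), Amigo2 (−1.50) and Actn1 (−0.77) are filled and lie left of 0.

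In spleen, 6 of the 8 genes lay above all 6 effector arrays in Spl_CD4, where 22.7% of all genes did, and 6 did so in Spl_CD8, where 24.1% did. They were the same genes, all but Ly6c1 and Ramp1. Since the genes were chosen on differences that involve these effector arrays, nothing is read from the counts. With 1 array each the spleen values have no test, and total CD4 and CD8 T cells of spleen are mixtures of naive and activated cells. Both spleen arrays also carried more B cell signal than the gland arrays. Over 11 measured B and plasma cell markers the mean was 5.36 in Spl_CD4 and 6.05 in Spl_CD8, against 1.90 to 3.50 on the gland arrays. The part of such cells in the spleen values of the 8 genes was not tested. Between the spleen arrays, by standing probe sets, Amigo2 was 1.17 higher in Spl_CD4 and Cd55 0.86 lower, and the other 6 genes differed by at most 0.74. Other probe sets gave other sizes. Igfbp4 was 2.03 higher in Spl_CD4 by 1421992_PM_a_at and 0.91 by 1423756_PM_s_at, and Actn1 0.92 and 0.94 by its dimmer probe sets. Cd55 differed by 0.0013 by 1443906_PM_at and by −0.32 by 1460242_PM_at. Again by standing probe sets, no neighbouring groups in the order of levels overlapped in Tdrp, Amigo2 and Actn1. In Igfbp4 the effector subsets did, in Cd55 LG_naive and Spl_CD8 did, and in Als2cl both LG_naive with Spl_CD4 and the effector subsets did.

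The genes of a list of naive and recirculating T cell genes gave the frame for the 8. Of 30 listed genes 23 were measured: 14 fell and 0 rose in LG_eTconv, 17 fell and 0 rose in LG_eTreg, and between the effector subsets 4 were higher and 6 lower in LG_eTreg. The median differences were −1.76, −2.06 and −0.11, the last −0.023 with values below background set to the limit. Sox4, a transcription factor gene, was below background in all effector arrays, at least 12.3-fold lower in LG_eTconv (limma adjusted p = 0.000114) and at least 13.4-fold lower in LG_eTreg (limma adjusted p = 0.000163). Lef1 was at least 6.67-fold lower in LG_eTconv (limma adjusted p = 9.25e-05) and also fell in LG_eTreg (limma adjusted p = 0.000162), where 1 of 3 arrays was above background and the size of the difference, 3.27 as fitted (log2 difference −3.27), is limited by background. Bach2, a repressor that preserves the naive state, was lower in LG_eTreg than in LG_eTconv by 3.13 on the log2 scale (log2 difference −3.13, limma adjusted p = 0.00073), as Tdrp was. St8sia1, a sialyltransferase gene, was also lower in LG_eTreg (log2 difference −2.22, limma adjusted p = 0.0115), a call that ended, at up to 0.0723, without LG_eTconv 1 and without LG_naive 1, LG_eTconv 1 and LG_eTreg 3 together. Pde2a, a phosphodiesterase gene, was higher in LG_eTreg than in LG_eTconv by 2.35 as fitted (limma adjusted p = 0.000682), with 1 of 3 LG_eTconv arrays above background, so the called genes of the list lay on both sides.

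The genes most like each of the 8 were found by the root mean square distance of their profiles over the 11 arrays, each profile centred on its own mean. This is a description, and genes on the same arrays share their array effects. Actn1 was nearest S1pr1, the receptor that lets T cells leave lymphoid organs, at a distance of 0.321, and Sgk3, a kinase, at 0.379. Igfbp4 was nearest Nedd4l, a ubiquitin ligase (0.436), and Cd177 (0.47). Cd55 was nearest Ppm1l, a phosphatase (0.306), and Sema4a, a semaphorin (0.381).

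Amigo2 was nearest Cd177 (0.677) and Mctp2 (0.687), and Tdrp was nearest Mctp2 (0.704) and Spib (0.872), an Ets factor gene that is also in the list of plasmacytoid dendritic cell markers. Als2cl was nearest Lair1 (0.579), also in that list, and Pde3b (0.631), a phosphodiesterase. Ly6c1 was nearest Eps8 (0.338), an actin-regulating gene, and Havcr1 (0.44). Ramp1 was nearest Cd82, a tetraspanin (0.378), and Lgi2 (0.398). Over the 9 gland arrays alone the nearest gene kept its place at rank 1 for Igfbp4, Tdrp, Als2cl, Actn1 and Ramp1, while Cd177 moved to rank 13 for Amigo2, Eps8 to rank 3 for Ly6c1 and Ppm1l to rank 2 for Cd55.

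Among themselves, the profiles of Actn1 and Cd55 were nearest (0.637), followed by Igfbp4 with Amigo2 (0.685) and with Als2cl (0.698). Tdrp lay 0.834 to 1.49 from the other genes that were high in both LG_naive and spleen. Ly6c1 lay 1.27 to 2.21 from every other described gene and Ramp1 2.21 to 3.30. The distance from Ly6c1 to Cd55 (1.27) was below that from Tdrp to Cd55 (1.49), so distance alone does not set Ly6c1 apart. Its low spleen values and the opposite direction of Ramp1 are what distinguish these 2 genes from the other 6.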

How the data were processed

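Expression was measured on 11 arrays. The submitters' processing notes name Partek and RMA, without versions, for the log2 values the authors deposited. The log base is inferred. Of 45141 probe sets, 104 controls were left out. Of the rest, 28898 had 1 gene symbol, 551 several and 15588 none in GEO's platform annotation. For each of 17097 genes its brightest probe set by mean over the gland arrays was used, and dim genes were kept. Group means were fitted with limma 3.58.1 in R 4.3.3 over 9 gland arrays (6 residual degrees of freedom), two-sided, with Benjamini-Hochberg adjustment over all genes and calls at an adjusted p under 0.05. The fit was tested on simulated data. Spleen groups have 1 array and no test. The genes described and the lists were chosen with earlier results of these data known. Genes named are the 8, the 2 nearest profiles of each (clone and numbered names left out), up to 3 called genes with the largest difference per list and comparison, and fixed lineage genes. Tlr9, Csf1r, Itgam, Lyz2, Ly86, Cd68, Pacsin1, Ramp2 and Ramp3 were added after their values were seen. Settings were changed in 20 ways: probe set choice, a filter on dim genes, background, normalization, prior, arrays and block. Proteins were not analysed here, and 1 gene list is not reported here.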

Additional observations from a re-analysis of the deposited data

How the results depend on the processing

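The processing was changed in 20 ways, 19 of them planned and the one without x_at probe sets chosen after seeing the data. Of the 8 genes, 3 were called between LG_eTreg and LG_eTconv in the main setting. The count was 1 with values below background set to the limit (Amigo2 0.0522, Actn1 0.0634) and 1 with the replicate number as a block (Amigo2 0.0539, Actn1 0.0503), and it ran from 2 to 3 with 1 array left out. Without x_at probe sets it was 4. Tdrp was called in all 20. Counts of all genes called in the 3 comparisons, 2303, 1995 and 974, moved by less than 1.5 times, and the replicate block gave 2271, 1929 and 906. Of 9 same-number correlations of deviations, from −0.0969 to 0.283, 3 were over 0.1. For LG_eTreg against LG_eTconv the correlations were 0.283, 0.0788 and 0.171, all positive. With 3 arrays a group, such correlations cannot decide whether the replicate numbers pair the arrays. Differences that were never called changed sign: Als2cl between LG_eTreg and LG_eTconv, −0.12, was 0.029 with the mean of its probe sets, −0.52 to 0.39 with 1 array left out (0.35 without LG_eTconv 1, 0.39 without LG_eTreg 3), and 0.86 without LG_naive 1, LG_eTconv 1 and LG_eTreg 3 together. Ly6c1, 0.38, ran from −0.082 (without LG_eTreg 2) to 0.65 with 1 array left out, and Ramp1, −0.026, from −0.53 to 0.28 (0.18 without LG_eTreg 1, 0.28 without LG_eTreg 2). The cause was not tested. Against LG_naive each of the 8 kept its direction in every setting, as the choice of genes would have it. Signals near the background limit bound the size of the differences of Igfbp4 and Als2cl.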
